A study of Homo sapiens with 15 samples.

Results

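The genes described are ARC, EGR1, FOS, FOSB, JUN, JUNB, IER2, NR4A1, NR4A2 and NR4A3, a set of immediate early genes. Every probe set annotated with one of these symbols and with no second gene was taken, which gave 21 of the 54675 probe sets and 10 of the 19775 singly named genes on the Affymetrix U133 Plus 2.0 array. The rule uses no signal value. The series followed IMR32, a human neuroblastoma cell line, while a short hairpin RNA lowered CDK2, a cyclin-dependent kinase of the cell division cycle. RNA was hybridised at 0, 8, 24, 48 and 72 h after induction with doxycycline, on 3 arrays a time and 15 altogether. No unit of time stands in the labels, and hours were assumed.

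All 5 groups came from 1 selected clone, IMR32-pcDNA6-CDK2sh, which carries the tetracycline repressor behind a CMV promoter and a pTER construct whose hairpin matches nucleotides 546 to 566 of CDK2. The cells grew in DMEM with 10% fetal calf serum, and 100 ng/ml doxycycline induced the hairpin. The 0 h arrays were the only ones without a period of induction, so the length of culture, the drug and the loss of CDK2 cannot be told apart. The labels do not say whether the 3 arrays of a time came from separate cultures, so each p-value reflects only how these arrays vary among themselves, which may be technical. CDK2 signal (204252_at) averaged 232 ± 16.3 before induction, and in order of the later times 94.5 ± 5.56, 80.4 ± 7.72, 48.6 ± 7.36 and 30.1 ± 9.9 (SD, n = 3 arrays each).

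Immediate early genes are transcribed within minutes of a stimulus such as serum, a growth factor or membrane depolarisation, without the need for new protein synthesis, and most of their mRNAs are short-lived. FOS and JUN family proteins pair to form the AP-1 transcription factor, EGR1 is a zinc-finger transcription factor, and the NR4A proteins are orphan nuclear receptors. In neurons the same genes follow synaptic activity, and ARC acts at the synapse itself, in the internalisation of glutamate receptors. Serum response factor, CREB and the kinases that activate them are the usual route from a signal to these promoters.

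Promoter sequence shows what these genes share and where they differ at the DNA level. Windows from 250 bases before to 50 after the start were taken from RefSeq on GRCh38.p14, and 8 of the 10 genes matched, with 9 windows. ARC and NR4A2 had no window, so the promoter results do not cover them. The short form of the cyclic AMP response element, TGACG read on either strand, lay in the windows of 7 of these 8 genes, all but NR4A1, and in 24.6% of all 35116 RefSeq windows. The full palindrome TGACGTCA, which contains that short form, was found in 0 of the 8 and in 1.85% of all windows. The 150 bases before the start are printed for the 7 genes with the short form, which is in capitals (TGACG, or CGTCA where it lies on the other strand). Capitals also mark the CArG boxes of EGR1, the sequence that serum response factor binds, and the TGACATCA of JUN, a variant known to bind JUN and ATF proteins.
FOS, chr14:75278678-75278827, plus strand: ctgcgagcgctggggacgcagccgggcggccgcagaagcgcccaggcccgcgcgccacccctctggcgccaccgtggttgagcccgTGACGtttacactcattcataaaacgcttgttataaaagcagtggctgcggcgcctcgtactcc
FOSB, chr19:45467846-45467995, plus strand: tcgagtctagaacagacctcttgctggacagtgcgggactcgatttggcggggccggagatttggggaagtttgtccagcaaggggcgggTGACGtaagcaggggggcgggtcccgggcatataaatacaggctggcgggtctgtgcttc
JUN, chr1:58784048-58784197, minus strand: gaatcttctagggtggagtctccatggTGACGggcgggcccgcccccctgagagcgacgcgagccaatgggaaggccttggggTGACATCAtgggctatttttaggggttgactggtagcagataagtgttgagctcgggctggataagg
JUNB, chr19:12791336-12791485, plus strand: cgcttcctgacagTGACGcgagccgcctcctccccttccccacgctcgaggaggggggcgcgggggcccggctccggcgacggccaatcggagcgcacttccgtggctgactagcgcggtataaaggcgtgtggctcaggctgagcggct
EGR1, chr5:138465329-138465478, plus strand: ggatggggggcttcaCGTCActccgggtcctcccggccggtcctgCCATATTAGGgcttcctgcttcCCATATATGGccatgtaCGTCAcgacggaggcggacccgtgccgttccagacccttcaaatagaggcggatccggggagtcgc
IER2, chr19:13150261-13150410, plus strand: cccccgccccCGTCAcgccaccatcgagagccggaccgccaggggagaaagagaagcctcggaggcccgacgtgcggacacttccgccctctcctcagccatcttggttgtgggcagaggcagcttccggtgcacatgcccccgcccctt
NR4A3, chr9:99821735-99821884, plus strand: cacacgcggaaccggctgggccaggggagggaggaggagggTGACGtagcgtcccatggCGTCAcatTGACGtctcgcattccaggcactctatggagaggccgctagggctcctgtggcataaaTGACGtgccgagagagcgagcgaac

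EGR1 alone of the 8 genes held CArG boxes in the window, at bases -105 to -96 and -83 to -74 from the start, and 1.29% of all windows hold one. JUN was the only one with TGACATCA, at -67 to -60, against 2.61% of all windows. The TATA box sequence TATAAA lay at -33 to -28 in FOS, -30 to -25 in FOSB and -31 to -26 in JUNB, and in 11.5% of all windows. EGR1 held the EGR element GCGNGGGCG once, at -198 to -190, outside the stretch printed, and 9.43% of all windows hold it. The AP-1 element TGANTCA (7.71% of all windows) and the NR4A element AAAGGTCA (1.22%) were found in 0 of the 8 windows. All motifs were searched on both strands. These matches describe letters in a fixed window and are not evidence of binding.

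Of the 7 genes tested, 2 were called higher and 2 lower at 48 h, and 2 higher and 1 lower at 72 h. Of all genes tested, 44% and 55.5% were called at these times. ARC rose late, 5.41-fold at 72 h after a pseudocount of 16 was added to each signal. NR4A2 fell over the same period, to 0.393 of its 0 h level on that scale. JUN was lower at 24 and 48 h and rose again between 48 and 72 h, EGR1 was higher at 48 h, and IER2 was higher at 72 h. JUNB and NR4A1 were called at no time in the unweighted fit of all 15 arrays without a block. FOS, FOSB and NR4A3 were too dim to pass the filter.

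Signals are MAS5 values as deposited, with a trimmed mean of 100.01 on every array and array medians between 15.1 and 20.5. Differences are log2 changes of signal plus 16, fitted with limma over all 15 arrays, and a gene was called at a Benjamini-Hochberg adjusted p under 0.05 over 11774 genes. A probe set was tested if its mean log2 value was at or above the median over the array, equal to a signal of 16.6, and the brightest such probe set stood for each gene. Of the members, 7 of 10 genes and 14 of 21 probe sets passed this filter. Among them ARC averaged under 16.6 at 0 and 8 h and passed through its later arrays. NR4A2 (15.7 at 72 h) and NR4A1 (14.5 at 48 h) also averaged under it and passed through their other arrays. The calls of these genes were therefore also taken without the filter. In that limma fit NR4A2 had an adjusted p of 0.00024 at 48 h and of 4.58e-06 at 72 h, and NR4A1 one of 0.171 at 48 h. Levels of different member probe sets are not set against each other, and a sum over a list of markers is given only to compare the same list between times.

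At 8 h, limma called 0 of the 7 genes, where 0.45% of all genes were called, and 0 of the 7 had an unadjusted p under 0.05. At 24 h it called 1 of 7, JUN, lower, with 13.5% of all genes called. At 48 h it called 4 of 7, ARC and EGR1 higher and JUN and NR4A2 lower, with 44% of all genes called. At 72 h it called 3 of 7, ARC and IER2 higher and NR4A2 lower, with 55.5% of all genes called. With the replicate number as a block, IER2, higher, and NR4A1, lower, were also called at 48 h, 6 of 7, with 47.4% of all genes called in that fit. These 4 comparisons share the 0 h arrays. In order of time, the median log2 change of the 7 genes was -0.12, -0.31, 0.08 and 0.21, beside 0.02, 0.05, 0.08 and 0.10 over all genes tested.

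**Figure D1:**
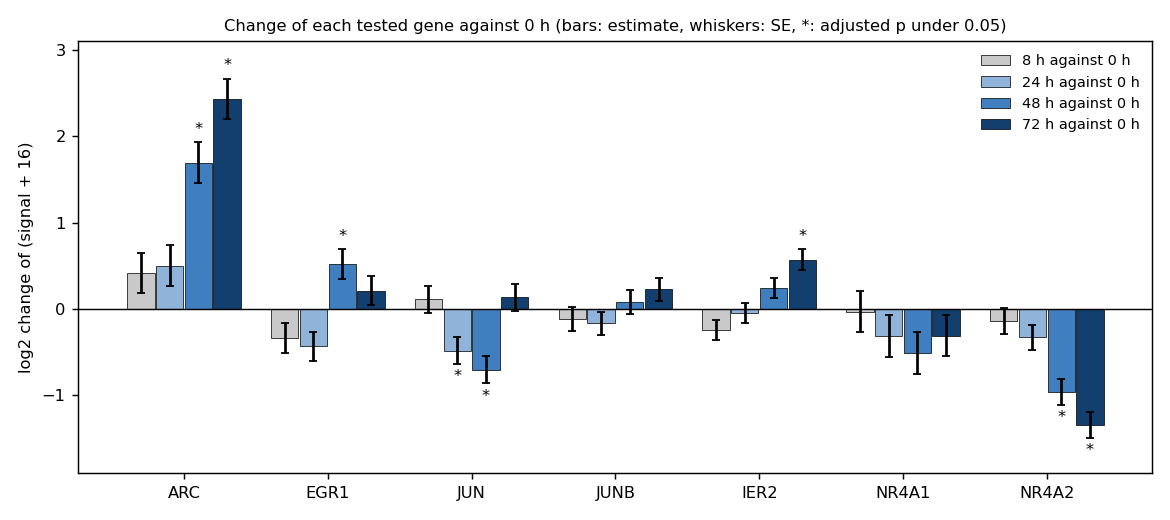
Log2 change of signal plus 16 against 0 h for the 7 tested genes, 1 bar per time (8, 24, 48 and 72 h), with the standard error as whiskers and a star where the adjusted p was under 0.05. ARC reaches 2.44 and NR4A2 -1.35 at 72 h, while JUN is lowest at 48 h, at -0.71.

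Steps between neighbouring times compare means of arrays other than those at 0 h, but the spread in their test is estimated from all 15. From 8 to 24 h, JUN was called lower, 1 of 7 genes, with 5.78% of all genes called. From 24 to 48 h, 3 of 7 were called, ARC and EGR1 higher and NR4A2 lower, with 22.9% of all genes called. From 48 to 72 h, JUN was called higher, 1 of 7, with 10.7% of all genes called. With the replicate number as a block, 3 of 7 were called from 48 to 72 h, with 14.7% of all genes called in that fit. The calls added were ARC (adjusted p = 0.0261, limma) and IER2 (adjusted p = 0.0120, limma). For this step, residuals of same-numbered arrays correlated at 0.14, 0.12 and 0.35. Over the whole time course, limma's F test called ARC, EGR1, JUN, IER2 and NR4A2, 5 of 7, with 57% of all genes called.

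Among the AP-1 genes, JUN had the clearest course. JUN encodes the subunit that can pair with itself or with FOS proteins, and 4 of its probe sets passed the filter. The brightest, 201464_x_at, had signals of 375.5, 327.1 and 353.9 at 0 h, 361.9, 295.2 and 515.1 at 8 h, 260.5, 214.7 and 269.5 at 24 h, 216.1, 172.2 and 245.8 at 48 h, and 352.0, 423.6 and 389.7 at 72 h. All 6 arrays of 24 and 48 h lay below all arrays of 0 and 72 h, and the highest of all was replicate 3 at 8 h. The log2 change against 0 h was -0.48 at 24 h (SE 0.16, adjusted p = 0.0482, limma) and -0.71 at 48 h (SE 0.16, adjusted p = 0.0013, limma).

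At 72 h JUN differed from 0 h by 0.13 on the log2 scale, with a 95% interval of -0.19 to 0.46 and an adjusted p of 0.487 in limma. From 48 to 72 h it rose by 0.84 (SE 0.16, adjusted p = 0.00185, limma), at rank 59 from the highest of 11774 genes. The 24 h call was near the threshold: without 1 array of 0 h or 24 h at a time the adjusted p lay between 0.0702 and 0.165, and it was 0.0938 in limma with no filter. The step from 8 to 24 h, -0.59 (adjusted p = 0.0317, limma), was -0.38 (adjusted p = 0.146) without replicate 3 at 8 h.

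The other JUN probe sets were tested singly, among the 27307 of the array that passed. The probe set 201466_s_at had signals of 159.5, 157.6 and 169.6 at 0 h, 168.2, 112.0 and 187.7 at 8 h, 82.9, 92.3 and 105.4 at 24 h, 88.7, 89.5 and 160.3 at 48 h, and 242.4, 256.5 and 270.9 at 72 h. Its 3 arrays at 72 h were above every other array, and its 24 h arrays were below all of 0 h. It was called lower at 24 h (-0.71) and 48 h (-0.51), and called higher at 72 h (0.61, SE 0.18, adjusted p = 0.0102, limma), which the brightest probe set was not. The probe set 201465_s_at was called lower at 48 h (-0.75, adjusted p = 0.00393, limma) and rose by 1.004 from 48 to 72 h. The fourth, 213281_at, was called at no time, with -0.45 at 48 h (adjusted p = 0.0759) and -0.25 at 72 h (adjusted p = 0.316, limma). The JUN probe sets thus share the lower level at 48 h in sign and differ in sign at 72 h. In Affymetrix naming, probe sets ending in _x_at hold probes that can match other transcripts, which applies to the sets that stand for JUN, NR4A2 and NR4A1.

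**Figure D2:**
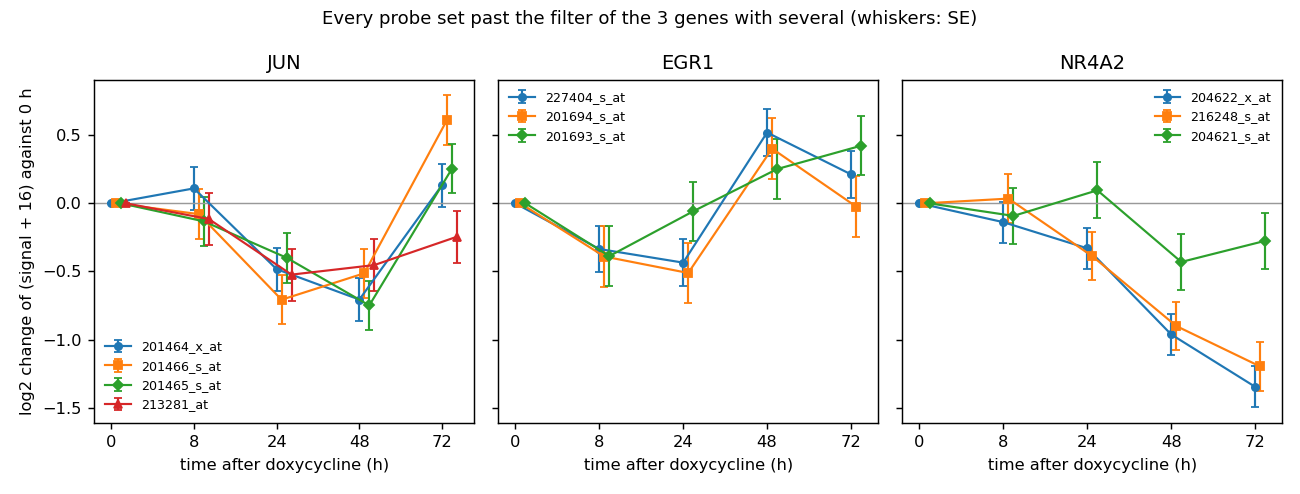
Log2 change of signal plus 16 against 0 h (whiskers, standard error) for each probe set past the filter of JUN, EGR1 and NR4A2, at 0, 8, 24, 48 and 72 h. 3 of the 4 JUN probe sets are above 0 at 72 h, and the NR4A2 probe set 204621_s_at stays at -0.28 there, where the other NR4A2 sets reach -1.20 and -1.35.

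JUNB, an AP-1 subunit that can restrain JUN, was called at no time over all arrays. Its signals (201473_at) were 63.2, 86.2 and 77.5 at 0 h, 66.9, 63.7 and 73.5 at 8 h, 63.9, 61.8 and 69.9 at 24 h, 76.7, 84.1 and 80.0 at 48 h, and 104.1, 68.2 and 104.1 at 72 h. The 72 h arrays overlapped those at 0 h because replicate 2 was low. The log2 change at 72 h was 0.23, with a 95% interval of -0.06 to 0.52 and an adjusted p of 0.171 in limma. Without that array JUNB was called higher at 72 h (0.40, adjusted p = 0.0158, limma).

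FOS encodes the founding partner of JUN in AP-1, and its only probe set (209189_at) did not pass the filter. FOS signals were 1.4, 2.1 and 20.7 at 0 h, 2.4, 4.1 and 12.8 at 8 h, 2.2, 0.8 and 15.7 at 24 h, 12.1, 2.8 and 21.5 at 48 h, and 14.5, 15.9 and 21.0 at 72 h. Replicate 3 was the highest array at every one of the 5 times. Each later group overlapped the 0 h arrays, while all arrays of 72 h were above all of 8 h. In a fit with no filter, FOS differed from 0 h by 0.55 on the log2 scale at 72 h, with an adjusted p of 0.211 in limma.

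FOSB, a further FOS family member best known from chronically stimulated neurons of rodents, also had 1 probe set (202768_at) below the filter. Its signals were between 1.4 and 2.2 at 0 h, between 1.2 and 1.7 at 8 h, between 1.0 and 2.6 at 24 h, between 2.2 and 3.2 at 48 h, and between 2.6 and 3.8 at 72 h. All 3 arrays at 72 h were above all 3 at 0 h, at signals where the array gives little precision. The unfiltered limma fit gave 0.13 at 72 h with an adjusted p of 0.243.

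EGR1 stood highest at 48 h. Its signals (227404_s_at) were 115.8, 116.9 and 92.0 at 0 h, 86.5, 99.0 and 64 at 8 h, 63.0, 66.2 and 101.9 at 24 h, 142.1, 144.3 and 204.1 at 48 h, and 115.4, 130.7 and 136.8 at 72 h. Every 48 h array was above every array of the other 4 times, and replicate 3 at 48 h was far above the other two. The log2 change at 48 h was 0.52 against 0 h (SE 0.17, adjusted p = 0.0190, limma) and 0.96 against 24 h (SE 0.17, adjusted p = 0.000493, limma), the step at rank 73 from the highest of 11774 genes. At 8 h (-0.34) and 24 h (-0.44, adjusted p = 0.101, limma) it did not pass the threshold.

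The 48 h call of EGR1 against 0 h was lost without replicate 3 at 48 h (0.36, adjusted p = 0.115, limma), without replicate 3 at 0 h (0.42, adjusted p = 0.0875) and without replicate 3 at every time (0.27, adjusted p = 0.0767). Centring each array on its median gave 0.42 (adjusted p = 0.0586), and the mean of the 3 EGR1 probe sets 0.39 (adjusted p = 0.0877). The step from 24 to 48 h kept its call in each of these. At 24 h, EGR1 was -0.62 (adjusted p = 0.0297, limma) without replicate 3 of that time.

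A second EGR1 probe set, 201694_s_at, showed the same step from 24 to 48 h (0.91, adjusted p = 0.00961, limma over probe sets) but was not called at 48 h against 0 h (0.40, adjusted p = 0.177). Its signals were 77.4, 80.2 and 47.3 at 0 h, 35.3, 34.3 and 60.2 at 24 h, and 75, 74.3 and 143.8 at 48 h, with replicate 3 highest at 24 and 48 h and lowest at 0 h. The third, 201693_s_at, had mean signals of 18.8, 10.4, 17.6, 25.8 and 31 in order of the 5 times. It passed only the F test over the time course (adjusted p = 0.0394, limma).

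IER2, a small nuclear protein induced by serum, was higher at 72 h. Its signals (202081_at) were 215.3, 237.1 and 277.0 at 0 h, 182.7, 201.8 and 223.9 at 8 h, 231.0, 203.9 and 270.9 at 24 h, 280.3, 272.8 and 318.4 at 48 h, and 331.5, 367.3 and 407.2 at 72 h. The 3 arrays at 72 h were above all others, and replicate 3 was the highest array at each time. At 72 h IER2 was 0.57 above 0 h on the log2 scale (SE 0.12, adjusted p = 0.000443, limma). At 48 h it was 0.25, with an adjusted p of 0.0967 in limma and of 0.0189 with the replicate number as a block.

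Among the NR4A receptors, NR4A2 fell at 48 and 72 h in 2 of its 3 tested probe sets. NR4A2 is needed in mice for the development of midbrain dopamine neurons, and its probe set 204622_x_at had signals of 75.1, 57.6 and 60.0 at 0 h, 49.2, 54.3 and 67.5 at 8 h, 48.2, 43.6 and 51.0 at 24 h, 20.8, 26.6 and 28 at 48 h, and 11.0, 14.8 and 21.3 at 72 h. All arrays of 48 and 72 h lay below all arrays of 0, 8 and 24 h. The log2 change was -0.96 at 48 h (SE 0.15, adjusted p = 4.89e-05, limma) and -1.35 at 72 h (SE 0.15, adjusted p = 5.76e-07, limma). The step from 24 to 48 h was -0.63 (adjusted p = 0.00497, limma), and that from 48 to 72 h was -0.38 (adjusted p = 0.109).

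The NR4A2 probe set 216248_s_at had 37.9, 54.9 and 73.1 at 0 h, 44.9, 49.3 and 76.0 at 8 h, 35.1, 38.5 and 38.6 at 24 h, 18.9, 21.5 and 24.0 at 48 h, and 16.5, 14.5 and 12.5 at 72 h. It was called lower at 48 h (-0.90) and 72 h (-1.20, SE 0.18, adjusted p = 2.92e-05, limma over probe sets). The third, 204621_s_at, had 32.4, 24.0 and 31.2 at 0 h, 18.9, 10.9 and 23.8 at 48 h, and 17.3, 15.6 and 33.0 at 72 h. Its 72 h arrays overlapped 0 h through replicate 3, and it was not called at 48 h (-0.43, adjusted p = 0.114) or 72 h (-0.28, adjusted p = 0.290, limma). At 72 h the 2 sets that were called had signals at or near the 16.6 of the filter, so the depth of the fall depends on the pseudocount: -1.35 became -2.003 with a pseudocount of 1 and -0.69 with 64.

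NR4A1, first found in rat cells treated with nerve growth factor, was dim and variable. Its brightest probe set (202340_x_at) had 24.5, 19.1 and 39.3 at 0 h, 27.2, 28 and 22.8 at 8 h, 11.5, 18.7 and 27.1 at 24 h, 14.4, 8.7 and 20.3 at 48 h, and 15.3, 9.5 and 35.9 at 72 h. Replicate 3 was the highest array at 0, 24, 48 and 72 h. Each later group overlapped the 0 h arrays, while all arrays of 48 h were below all of 8 h. The log2 change was -0.51 at 48 h (SE 0.24, adjusted p = 0.0978, limma), and with the replicate number as a block the adjusted p was 0.0402. For 48 h against 0 h, residuals of same-numbered arrays correlated at 0.17, 0.12 and 0.21. At 72 h the change was -0.31 over all arrays and -0.60 (adjusted p = 0.0330, limma) without replicate 3 of that time, and the same omission gave 48 h an adjusted p of 0.0481. Without replicate 3 at 0 h the 48 h change was -0.33 (adjusted p = 0.348), and with array weights it was -0.52 (adjusted p = 0.0318, limma). The other NR4A1 probe sets, 211143_x_at and 210226_at, lay between 1.0 and 24.4 on all arrays and did not pass the filter.

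NR4A3 had 3 probe sets and none passed. The brightest, 216979_at, lay between 3.1 and 12.5 at 0 h, between 1.8 and 13.9 at 8 h, between 2.7 and 12.3 at 24 h, between 6.3 and 11.3 at 48 h, and between 7.3 and 16.3 at 72 h. The other NR4A3 sets, 207978_s_at and 209959_at, never exceeded 14.3. The unfiltered limma fit gave NR4A3 a log2 change of 0.15 at 72 h (adjusted p = 0.681).

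**Figure D3:**
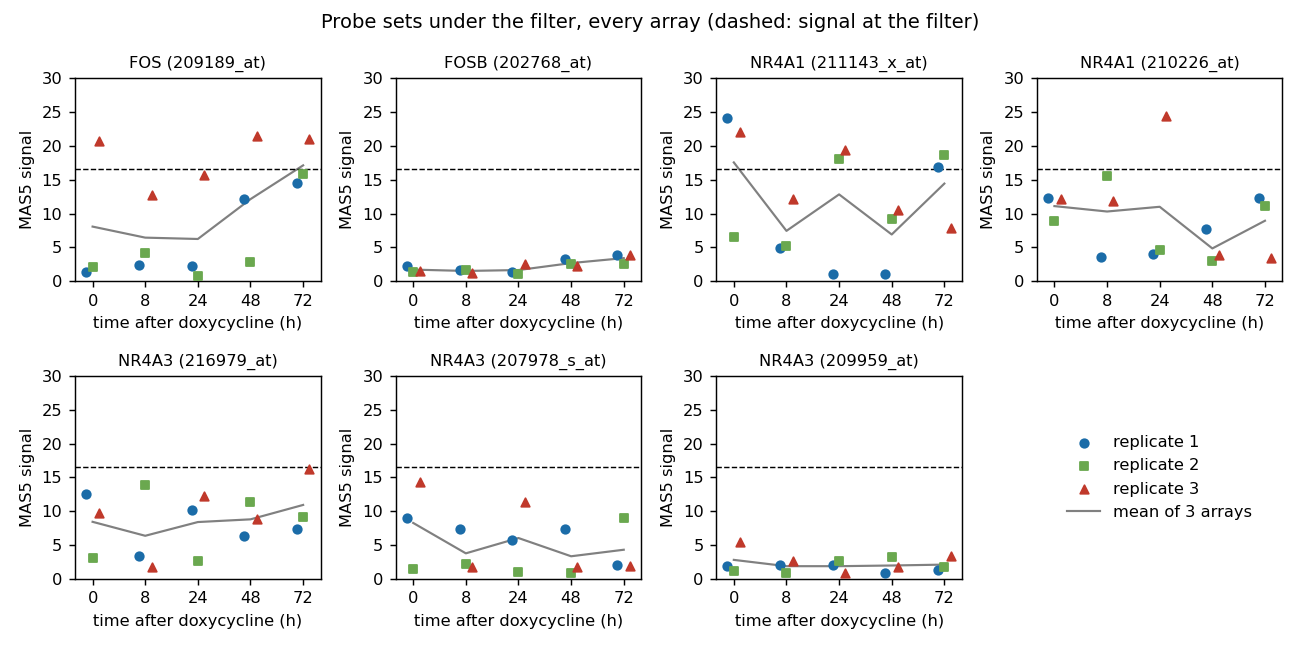
MAS5 signal of the 7 probe sets of FOS, FOSB, NR4A1 and NR4A3 that did not pass the filter, on every array by time, with the mean of 3 arrays as a line and the filter signal of 16.6 dashed. The FOS arrays of replicate 3 stand at 20.7, 12.8, 15.7, 21.5 and 21.0 in order of time, above both other arrays each time.

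ARC had the greatest log2 change of the 7 tested genes. Its only probe set (210090_at) had signals of 2.6, 3.3 and 19.3 at 0 h, 15.9, 18.5 and 11.4 at 8 h, 17.9, 8.9 and 26.6 at 24 h, 46.8, 59.4 and 75.1 at 48 h, and 127.9, 95.3 and 109.1 at 72 h. Every array of 72 h was above every array of 48 h, and all of these were above the arrays of 0, 8 and 24 h, which overlapped each other. The log2 change was 1.70 at 48 h (SE 0.23, adjusted p = 1.39e-05, limma) and 2.44 at 72 h (SE 0.23, adjusted p = 9.53e-08, limma). At 24 h it was 0.50 (adjusted p = 0.172, limma), and 0.80 (adjusted p = 0.0265) without replicate 3 at 0 h.

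From 24 to 48 h ARC rose by 1.195 (SE 0.23, adjusted p = 0.00114, limma), and from 48 to 72 h the change was 0.74 (adjusted p = 0.0508). That step was called without replicate 3 at 0 h (adjusted p = 0.0198, limma) and without replicate 1 at 0 h (adjusted p = 0.0483), arrays that enter it only through the spread. Without the filter, the ARC change had an adjusted p of 7.81e-05 at 48 h and of 9.46e-07 at 72 h. Since 2 of the 0 h arrays were near 0, the size depends on the pseudocount: 2.44 at 72 h became 4.03 with a pseudocount of 1 and 1.28 with 64. Leaving out replicate 3 at 0 h, the one 0 h array with a higher value, gave 2.73 at 72 h.

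**Figure D4:**
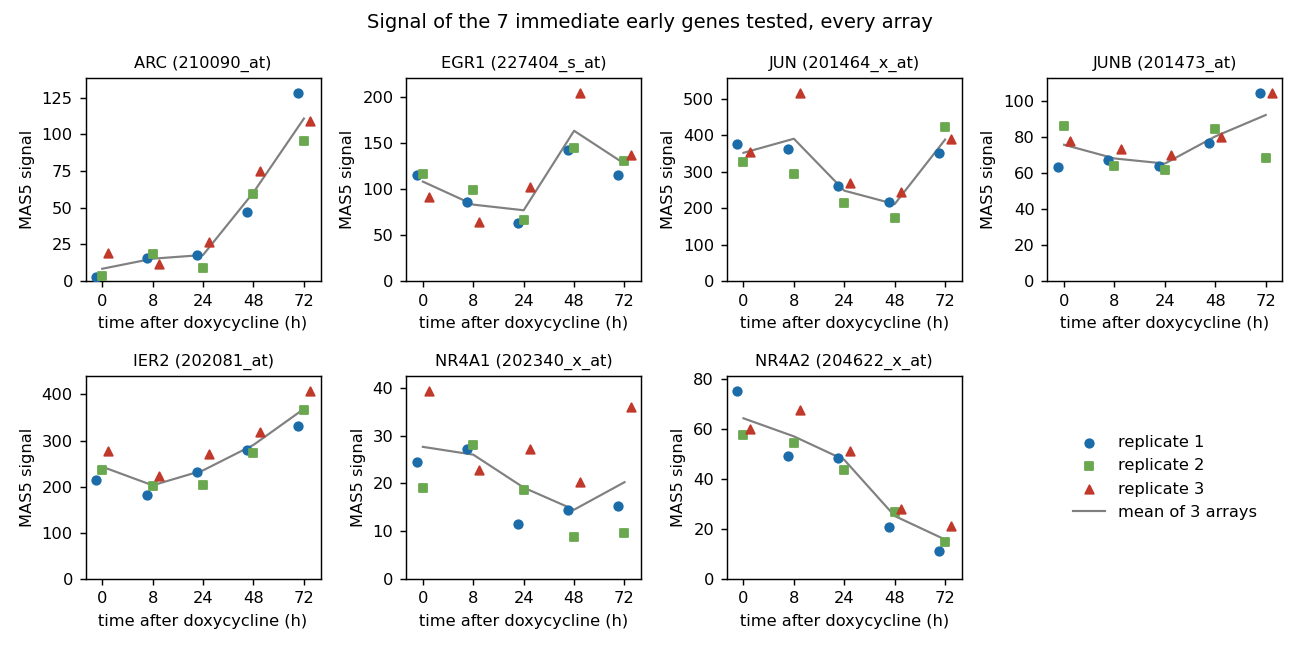
MAS5 signal of the probe set that stands for each of the 7 tested genes on every array by time (0, 8, 24, 48 and 72 h), with 1 symbol per replicate and the mean of 3 arrays as a line. ARC climbs to between 95.3 and 127.9 at 72 h, NR4A2 drops to between 11.0 and 21.3, and JUN dips at 24 and 48 h.

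Counted over probe sets, 0 of 14 were called at 8 h (0 with an unadjusted p under 0.05, limma), where 0.242% of all probe sets were called. At 24 h 1 of 14 was called, lower, with 8.68% of all called. At 48 h 7 of 14 were called, 2 higher and 5 lower, with 34.6% of all called, and 1 higher and 6 lower when each array was centred on its median. At 72 h 5 of 14 were called, 3 higher and 2 lower, with 46.4% of all called. At the level of genes the 48 h split was 2 higher and 2 lower, and 1 higher and 2 lower with centring, which removed EGR1. Centring turned the median change of all genes at 72 h, 0.10 on the log2 scale, into -0.01, and no called value of a member changed sign under it.

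Of the 21 member probe sets, replicate 3 was the highest array of its time in 9, 12, 18, 13 and 12, in order of the 5 times. By the weights that limma gives to arrays, which measure agreement with the other arrays over all genes, replicate 3 of 72 h (0.356) and of 8 h (0.405) were lowest. What replicate 3 shares was not tested. Of 14 noradrenergic neuroblastoma markers 12 were on the array and 10 passed the filter. Signals summed over the 12 were 11010 to 11600 at 72 h and 9049 to 9565 at 0 h. GATA3 (3230) and TUBB3 (2850) were the largest parts at 0 h. TH, the first enzyme of catecholamine synthesis, was below the filter, with mean signals of 3.73 at 72 h and 0.633 at 0 h. Of 8 immune markers 0 passed the filter, and 1 of 6 endothelial and 1 of 6 epithelial markers did. Of 10 fibroblast and mesenchymal markers 5 passed, and sums over all 10 were 3794 to 4206 at 72 h and 4248 to 4786 at 0 h. At 72 h 3 of the 5 were called higher (LUM, THY1 and PDGFRB) and 1 lower (VIM), with a median log2 change of 0.60. LUM averaged 346 at 72 h and 13.7 at 0 h. VIM, which makes up most of the sum, averaged 3060 at 72 h and 3980 at 0 h. The part of such cells in the members' values was not tested. In bulk RNA, fewer cells of a kind and less RNA per cell cannot be told apart.

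For each member called by the F test, the genes with the most similar course were found by the root mean square difference between the 4 log2 changes against 0 h, over 5 times of 3 arrays each. For ARC these were RUNDC3A (0.174), GPR173 (0.177) and GRK5 (0.183), and RUNDC3A reached 2.45 at 72 h beside 2.44 for ARC. For NR4A2 they were MCMBP (0.056), TIPIN (0.058) and TEX30 (0.061). TIPIN, a partner of the replication fork protein TIMELESS, had -1.06 at 48 h and -1.33 at 72 h, beside -0.96 and -1.35 for NR4A2.

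For JUN the closest courses were those of SQSTM1 (0.128), ID4 (0.146) and NOP14-AS1 (0.160). SQSTM1, the autophagy receptor p62, had -0.44 at 24 h, -0.66 at 48 h and -0.11 at 72 h, beside -0.48, -0.71 and 0.13 for JUN. For IER2 they were THY1 (0.055), ZMYND10 (0.059) and KCNT2 (0.063), and for EGR1 SIX4 (0.157), ASAH2B (0.163) and SERINC5 (0.166). The nearest gene was farthest for ARC and EGR1, at 0.174 and 0.157. This difference is not scaled to the size of the changes, so it does not rank likeness between members.

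Other genes known to be induced rapidly by serum or growth factors moved in both directions. Of 38 listed, 29 were tested, and 2 were called higher and 2 lower at 24 h, 9 higher and 5 lower at 48 h, and 12 higher and 7 lower at 72 h, where 13.5%, 44% and 55.5% of all genes were called. Their median log2 change was 0.14 at 72 h, beside 0.10 over all genes tested and 0.21 for the 7 immediate early genes. DUSP6, a phosphatase of ERK, rose by 2.29 at 72 h (SE 0.26, adjusted p = 8.97e-07, limma), and DUSP4, a nuclear phosphatase of MAP kinases, by 1.45. PLK2, a polo-like kinase of neurons and stressed cells, rose by 0.64 at 24 h, 1.43 at 48 h and 1.99 at 72 h.

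RHOB, a small GTPase with a short-lived mRNA, fell by 0.54 at 24 h, by 0.98 at 48 h and by 0.93 at 72 h (adjusted p = 3.45e-05 at 72 h, limma). MAFF, a small MAF transcription factor, was lower at 24 h (-0.78), and SGK1, a serum-induced kinase, was lower at 48 h (-0.99). IER5, named like IER2 for its immediate early response, was higher at 24 h (0.28), 48 h (0.27) and 72 h (0.49). After centring of the arrays, the 24 h split was 0 higher and 2 lower and the 48 h split 5 higher and 6 lower. Quantile normalisation gave 7 higher and 6 lower at 48 h.

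Genes induced by activity in neurons, of which 8 of 16 listed were tested, were also divided. At 24 h 1 was called higher and 3 lower, at 48 h 3 higher and 4 lower, and at 72 h 3 higher and 3 lower, beside 13.5%, 44% and 55.5% of all genes, with a median of -0.24 at 72 h. SCG2, a granin of secretory granules, rose by 1.70 at 72 h, RGS4, a brake on G protein signals, by 1.24, and BDNF, a neurotrophin, by 1.23 (SE 0.16, adjusted p = 4.85e-06, limma). NPTX1, a neuronal pentraxin, fell by 1.05 at 72 h. GAL, the neuropeptide galanin, was lower at 24 h (-1.12), 48 h (-1.16) and 72 h (-0.73). VGF was lower at 24 h (-0.78) and 48 h (-0.695), and CREM at 24 h (-0.61), 48 h (-0.61) and 72 h (-0.51). Under either rescaling, 0 were called higher and 3 lower at 24 h.

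Partners of the AP-1, EGR and NR4A proteins were tested for 12 of 17 listed. At 24 h 1 was called, lower, beside 13.5% of all genes. At 48 h 2 were called higher and 2 lower, and at 72 h 3 higher and 4 lower, beside 44% and 55.5% of all genes, with a median of 0.00 at 72 h. RXRA, the retinoid receptor that pairs with NR4A1 and NR4A2, rose by 0.94 at 48 h and 1.25 at 72 h (SE 0.16, adjusted p = 2.32e-06, limma). ATF7, a relative of ATF2, rose by 0.79 at 72 h. BATF3, which pairs with JUN proteins, was lower at 24 h (-0.44), 48 h (-0.70) and 72 h (-0.65). ATF3, itself an immediate early gene, was lower at 48 h (-0.49) and 72 h (-0.33), and JDP2, a repressor of AP-1, at 72 h (-0.60).

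Of the factors and kinases upstream of these promoters 24 of 28 listed were tested, and the direction of their calls varied with the scaling of the arrays. At 24 h 3 were called higher and 1 lower, at 48 h 8 higher and 1 lower, and at 72 h 13 higher and 1 lower, beside 13.5%, 44% and 55.5% of all genes, with a median of 0.25 at 72 h. Centring each array on its median gave 1 higher and 1 lower at 24 h, 1 higher and 3 lower at 48 h, and 8 higher and 3 lower at 72 h, and quantile normalisation 4 higher and 2 lower at 48 h, so the excess of higher calls depended on the scaling. MEF2D, a transcription factor of neurons and muscle, was higher at 48 h (0.40) and 72 h (1.02, SE 0.12, adjusted p = 1.58e-06, limma). RPS6KA2 (0.67) and MAP2K2 (0.66), kinases of the ERK pathway, were higher at 72 h. Other kinases of that pathway were not: MAP2K1 was lower at 48 h (-0.36, adjusted p = 0.00805, limma). At 72 h MAP2K1 (-0.23), RPS6KA1 (-0.10) and RPS6KA3 (-0.14) were not called.

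CRTC1, a coactivator of CREB, was higher at 48 h (0.45) and 72 h (0.59), and its relative CRTC2 at 24 h (0.61) and 72 h (0.54). MAPK3, which encodes ERK1, was higher at 48 h (0.47) and 72 h (0.55). MRTFB, a coactivator of serum response factor, was higher at 48 h (0.43) and 72 h (0.51). RPS6KA5, a kinase of CREB and histone H3, was higher at 24 h (0.38) and 48 h (0.28). MAPK8, which encodes JNK1, was higher at 24 h (0.29), 48 h (0.24) and 72 h (0.21). ELK3, a partner of serum response factor, was lower at 24 h (-0.53).

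Proteins that bind AU-rich elements or remove poly(A) tails, which govern how long these mRNAs last, were tested for 16 of 17 listed. At 24 h 1 was called higher and 1 lower, at 48 h 4 higher and 6 lower, and at 72 h 3 higher and 5 lower, beside 13.5%, 44% and 55.5% of all genes, with a median of -0.02 at 72 h. BTG1, which activates deadenylation, rose by 0.42 at 24 h, 0.85 at 48 h and 0.94 at 72 h (SE 0.08, adjusted p = 4.23e-08, limma). ELAVL1, the stabilising factor HuR, fell by 0.51 at 48 h and by 0.87 at 72 h. HNRNPD, also known as AUF1, fell by 0.72 at 72 h, and KHSRP, a decay factor, by 0.61. TOB1, which recruits deadenylases, was higher at 48 h (0.53) and 72 h (0.35), and CNOT7, a deadenylase, was lower at 24 h (-0.29). Centring gave 2 higher and 6 lower at both 48 and 72 h, and quantile normalisation 1 higher and 0 lower at 24 h.

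At 8 h, 0 genes of these 5 lists were called by limma. Of them, 0 of 29 rapidly induced genes, 1 of 8 activity-induced genes, 0 of 12 partners, 3 of 24 upstream genes and 0 of 16 AU-rich element genes had an unadjusted p under 0.05. The lists hold some genes in common, such as ATF3, and all comparisons share the 0 h arrays.

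**Figure D5:**
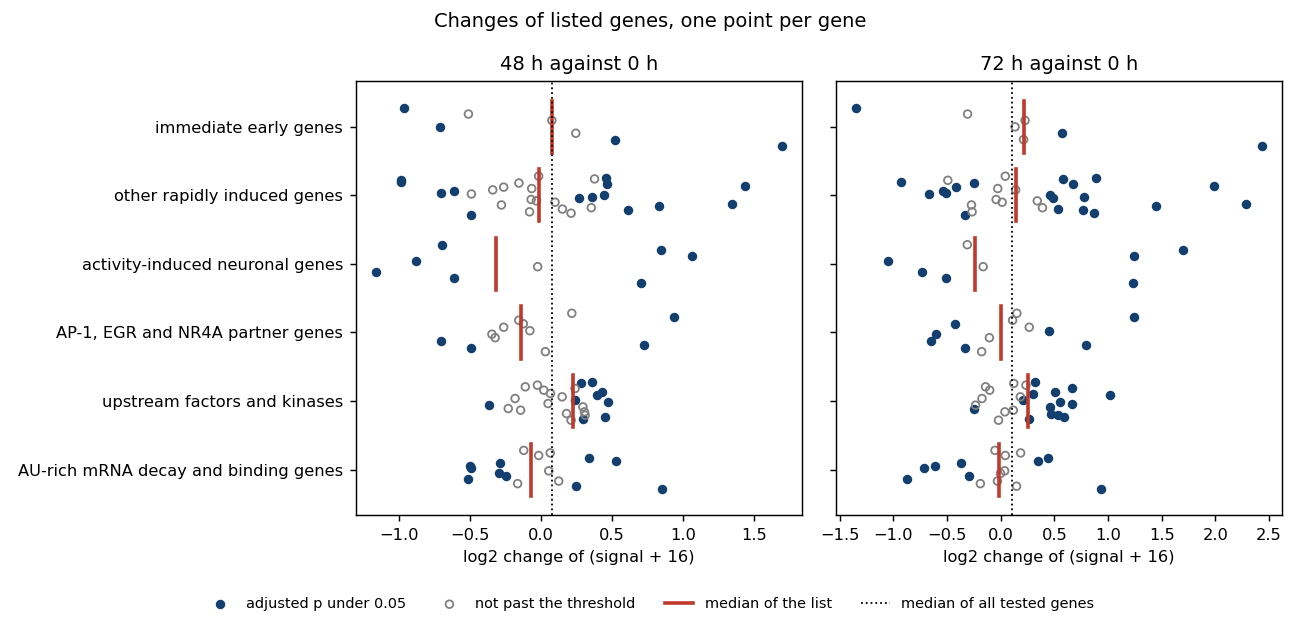
Log2 change of signal plus 16 at 48 h (left panel) and 72 h (right panel) against 0 h, 1 point per tested gene of each list, filled where the adjusted p was under 0.05, with the median of the list in red and the median of all tested genes dotted. At 72 h the list medians run from -0.24 for activity-induced neuronal genes to 0.25 for upstream factors and kinases, beside 0.10 for all genes.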

How the data were processed

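RNA of 15 IMR32 samples was measured on Affymetrix U133 Plus 2.0 arrays. The deposited intensity values are linear MAS5 signals; the authors used MAS5 and GCOS, per the submitters' processing notes, whose versions are not given in the sources used here. Every array's trimmed mean, leaving out 2% at each end, was 100.01. From here, log2(signal + 16) was fitted with limma 3.58.1 in R 4.3.3 (lmFit, eBayes with trend) over 5 times of 3 arrays, with no block. Control probe sets (62), those naming several genes (1801) and those naming none (11721) stood for no gene, and 41091 named 1 gene. Probe sets below the median of mean log2 values were left out, and 27307 passed. The brightest probe set past this filter stood for each of 11774 genes, with Benjamini-Hochberg adjustment over all of these. The fit was tested on simulated data.

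The members and lists were chosen with earlier results of these data known. Named were all members, CDK2, up to 4 called genes of each list with the greatest change at each time, and the 3 genes most like each member called over the time course and changed by at least 0.5. LUM, THY1, PDGFRB, VIM, TH, MAP2K1, RPS6KA1 and RPS6KA3 were named after their values were seen. Whether replicate numbers pair arrays was checked from the residuals over all genes: every same-numbered pair correlated above 0.1 for 48 h against 0 h (0.17, 0.12 and 0.21) and 72 h against 48 h (0.14, 0.12 and 0.35), and not for the other comparisons, so blocked values are given for these. Alternatives covered the pseudocount, scaling, filter, probe set choice, variance trend, weights, block, samples in the fit, a fold threshold and left-out arrays. No scanner files were used, and the number of arrays limits the precision, as do low signals, where the size of a change depends on the pseudocount. Promoter sequences came from RefSeq, GRCh38.p14.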

Additional observations from a re-analysis of the deposited data

How the results depend on the processing

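Over 1386 alternative values of the members, 1314 stayed on their side of the threshold, 35 gained a call and 37 lost one. No value called in either fit changed sign, and 23 values called in neither did, of up to 0.19 in size. The calls of ARC at 48 and 72 h and of NR4A2 at 72 h were kept under every alternative that tested these genes. The fit on the brightest 25% of probe sets tested neither. Counts of called members, in the main analysis, were 0 (8 h), 1 (24 h), 4 (48 h) and 3 (72 h) against 0 h, 1 (24 h against 8 h), 3 (48 h against 24 h), 1 (72 h against 48 h) and 5 over the time course, and of their probe sets 0, 1, 7 and 5. Leaving out 1 array at a time gave 0 to 0, 0 to 1, 3 to 5 and 3 to 4 members, then 0 to 1, 3 to 4, 1 to 2 and 5 to 6, and 0 to 0, 0 to 2, 5 to 8 and 5 to 6 probe sets. The other rapidly induced genes ranged over 0 to 0, 1 to 5, 12 to 15 and 16 to 20 at 8, 24, 48 and 72 h, activity-induced genes over 0 to 0, 2 to 4, 6 to 7 and 5 to 6, partners over 0 to 0, 0 to 1, 4 to 4 and 5 to 8, upstream genes over 0 to 0, 1 to 5, 4 to 10 and 9 to 15, and AU-rich element genes over 0 to 0, 1 to 2, 8 to 10 and 7 to 9.

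With an absolute log2 change of 1 also required, members counted 0 at 24 h, 1 at 48 h, 0 for 24 h against 8 h, 1 for 48 h against 24 h and 0 for 72 h against 48 h. Their probe sets then counted 0 at 24 h, 1 at 48 h and 3 at 72 h. Under the same rule, rapidly induced genes counted 0, 2 and 3 at 24, 48 and 72 h, activity-induced genes 1 at 24 h and 2 at 48 h, partners 0, 0 and 1, upstream genes 0, 0 and 1, and AU-rich element genes 0, 0 and 0. With the brightest 25% of probe sets only, 3 members and 11 rapidly induced genes were tested. Members then counted 2 at 48 h, 1 at 72 h, 1 for 48 h against 24 h and 3 over the time course. Their probe sets counted 3 at 48 h and 2 at 72 h. The share of all genes called is not given for most of these alternatives, so such counts describe only how calls depend on the processing. With the brightest 25%, rapidly induced genes counted 6 at 48 h and 9 at 72 h. Activity-induced genes counted 2 at 24 h and 4 at 48 h, and partners 2 at 48 h and 4 at 72 h.

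For the 24 h count of members, centring, no filter and no variance trend gave 0, and array weights and leaving out replicate 3 at every time gave 2. For their probe sets at 24 h, no filter gave 0, array weights and leaving out replicate 3 gave 4, and the replicate block, only the arrays compared and leaving out the arrays of lowest weight gave 2. For 24 h against 8 h, no filter, no trend, only the arrays compared, leaving out replicate 3 and leaving out the arrays of lowest weight each gave 0. For 72 h against 48 h, a pseudocount of 64, quantile normalisation, only the arrays compared, leaving out replicate 3 and leaving out the arrays of lowest weight gave 2, the replicate block 3 and array weights 4. Leaving out the arrays of lowest weight, replicate 3 of 8 h and of 72 h, was chosen after seeing the data.

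Of the lists, rapidly induced genes at 24 h counted 2 with centring or no trend and 7 with the replicate block or without the arrays of lowest weight. Activity-induced genes counted 2 at 24 h with no filter, and 1 at 8 h without replicate 3. Partners at 24 h counted 2 with array weights and 0 with no filter or without replicate 3. Upstream genes counted 2 at 24 h and 4 at 48 h with centring, and 9 at 72 h with the mean of the probe sets of a gene. AU-rich element genes at 24 h counted 1 with no trend or quantile normalisation. The causes were not tested. In comparisons where not every same-numbered pair correlated above 0.1, the block changed 1 member's call: IER2 at 48 h against 24 h (0.29) was then called. That cut divides close values, since the residuals correlated at 0.12, 0.09 and 0.14 for 24 h against 0 h. With 3 arrays a time and low signals, FOS, FOSB and NR4A3 could be fitted only without the filter.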
